A study of Mus musculus with 65 samples.

Results

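Myo15, Hmcn2, Serpinb2, Fgd5, Synpo and Olfm1, 6 of the 15469 genes in the RNA table, had higher RNA in cerebella of mice with a conditional knockout of both MEF2A and MEF2D. They were selected on their rise in normalised read count in that double knockout, so their values in that knockout are given as a description, without a test. The study asked whether the paralogues MEF2A and MEF2D can stand in for one another in mouse cerebellum. RNA came from conditional knockout (cKO) and Control mice of 3 lines, MEF2AD (both genes), MEF2D and MEF2A, with 4 libraries in each of the 6 groups. The labels give postnatal day 22 for the RNA, and C57BL/6 mice and cerebellum throughout. RNA and H3K27ac libraries are labelled female, and 4 of the MEF2 ChIP libraries behind the peak lists are labelled male. The labels do not give the Cre driver, the deleted exons or the alleles of the Controls. H3K27ac, an acetylation of histone H3 found at active regulatory DNA, was profiled by ChIP-seq in 3 cKO and 3 Control libraries of each line, with 2 inputs. Binding came as peak positions without scores, 203 for MEF2A and 1388 for MEF2D, with 1 list per factor. The RNA columns were matched to samples by name, although the sample titles carry the word Rotarod and the table calls itself baseline, so whether the mice had run a rotarod cannot be told from the labels.

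MEF2 factors bind AT-rich DNA as dimers, recruit coactivators or class IIa histone deacetylases, and are abundant in granule neurons, the most numerous neurons of the cerebellum. The 6 genes belong to different families. Myo15 encodes an unconventional myosin that carries proteins to the tips of hair cell stereocilia in the inner ear. Hmcn2 encodes hemicentin 2, a large extracellular matrix protein of the fibulin group. Serpinb2 encodes an inhibitor of the plasminogen activator urokinase. Fgd5 encodes a guanine nucleotide exchange factor for the small GTPase CDC42, best known in endothelial cells. Synpo encodes synaptopodin, an actin-associated protein of the spine apparatus and of kidney podocytes. Olfm1 encodes noelin, a secreted neuronal glycoprotein found with AMPA receptors.

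The promoters show what the genes do and do not share in sequence. RefSeq promoters (GRCm38.p6, 250 bases before to 50 bases after a start site) were found for 5 of the 6 genes, and the MEF2 core motif, searched on both strands, was in none of them. It was in 0.557% of all 32851 promoters and in 29.3% of the 92 promoters that a MEF2D peak covered by at least 100 bases. With 1 mismatch allowed the core was still in none of the 5 genes' promoters, against 7.79% of all promoters. The lines below show 4 of these genes and Serpinb8, the neighbour of Serpinb2, 5′ to 3′ on the plus strand, since they differ in base composition and hold the matches found. Capitals mark TGANTCA, a looser form of the AP-1 core (which has C or G at the N), and TATAAA in the 50 bases before the start, the TATA box letters.
Myo15 (chr11:60469089-60469388): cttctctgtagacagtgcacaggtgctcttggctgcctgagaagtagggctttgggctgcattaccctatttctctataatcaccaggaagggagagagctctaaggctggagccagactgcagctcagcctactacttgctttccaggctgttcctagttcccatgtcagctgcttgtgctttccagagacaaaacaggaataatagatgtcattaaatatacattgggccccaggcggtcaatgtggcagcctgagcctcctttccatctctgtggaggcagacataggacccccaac
Hmcn2 (chr2:31314082-31314381): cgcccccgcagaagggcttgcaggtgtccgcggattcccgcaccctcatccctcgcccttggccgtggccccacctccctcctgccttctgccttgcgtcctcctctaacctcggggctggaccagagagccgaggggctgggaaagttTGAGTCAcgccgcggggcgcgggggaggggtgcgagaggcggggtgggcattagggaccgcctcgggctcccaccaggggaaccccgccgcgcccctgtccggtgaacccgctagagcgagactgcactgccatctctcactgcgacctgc
Serpinb2 (chr1:107511173-107511472): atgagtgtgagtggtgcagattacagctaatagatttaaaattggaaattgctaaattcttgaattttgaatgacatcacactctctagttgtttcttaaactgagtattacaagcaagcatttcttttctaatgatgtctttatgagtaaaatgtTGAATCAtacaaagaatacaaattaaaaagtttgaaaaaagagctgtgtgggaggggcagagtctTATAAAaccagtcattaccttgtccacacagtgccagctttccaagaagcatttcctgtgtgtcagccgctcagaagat
Olfm1 (chr2:28192843-28193142): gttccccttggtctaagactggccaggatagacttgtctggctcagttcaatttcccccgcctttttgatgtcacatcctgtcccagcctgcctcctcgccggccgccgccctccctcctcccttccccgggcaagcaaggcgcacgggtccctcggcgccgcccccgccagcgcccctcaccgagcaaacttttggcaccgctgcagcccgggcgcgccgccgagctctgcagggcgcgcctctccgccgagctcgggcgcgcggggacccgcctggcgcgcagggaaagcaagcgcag
Serpinb8 (chr1:107589756-107590055): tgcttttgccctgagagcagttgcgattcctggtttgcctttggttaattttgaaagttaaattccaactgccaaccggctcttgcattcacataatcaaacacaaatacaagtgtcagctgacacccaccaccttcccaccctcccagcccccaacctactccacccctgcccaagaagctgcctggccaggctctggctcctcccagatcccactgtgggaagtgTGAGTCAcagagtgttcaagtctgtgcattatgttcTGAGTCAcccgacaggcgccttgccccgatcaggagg
Serpinb2 carries TATAAA 29 bases before the first of its starts among these promoters, letters found in that window in 2.63% of all promoters. That start (107511423) lies inside the gene span used here (107500892 to 107525600), and no promoter at the left end of the span was searched. TGANTCA was found in 1 copy in Serpinb2 and Hmcn2 and in 2 copies in Serpinb8, against 7.81% of all promoters with any copy, and in none for Myo15, Fgd5 and Olfm1. The copies in Hmcn2 and Serpinb8 have G at the N, while that in Serpinb2 has A and so is not the AP-1 core. The overlapping window of a second Serpinb2 start holds 1 copy as well. CpG dinucleotides numbered 1 in Myo15 and 1 in the first Serpinb2 promoter, against 26 in Hmcn2, 37 in Fgd5 and 32 and 43 at the 2 starts of Olfm1, with a median of 7 over all promoters. The searches for TGANTCA, TGACGTCA (in none of the 5 genes' promoters and 1.79% of all) and TATAAA were added after the data were seen. A match is a description of letters, not of binding.

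Normalised read counts are given as CPM, the reads of a gene scaled to a common library size, in the order of replicates 1 to 4, and folds as differences on log2(CPM + 1), which understates the ratio of genes at a few CPM. CPM are not per length, so levels are compared within a gene only. Tissue was measured in bulk, so more cells of a type and more RNA per cell cannot be told apart. Each cKO has its own Control group, and the labels do not say whether libraries are separate animals, so the tests measure the spread between libraries. limma (adjusted p under 0.05, Benjamini-Hochberg) called 2.42% of the 15469 genes in MEF2AD cKO (1.16% higher), 4.93% in MEF2D cKO (2.59% higher) and 0.284% in MEF2A cKO (0.129% lower). All 4 MEF2AD cKO libraries lay above all 4 MEF2AD Controls for 3.27% of all genes, and for each of the 6 genes, which is how they were chosen. Mef2a read 76.9 to 99.2 CPM in the libraries labelled MEF2A cKO or MEF2AD cKO, against 181.7 to 231.8 CPM in their Controls. Mef2d RNA did not fall in MEF2AD cKO (360.9 to 387.7 CPM, against 275.5 to 315.9 CPM in MEF2AD Control) or in MEF2D cKO (359.5 to 387.2 CPM, against 305.7 to 356.7 CPM in MEF2D Control), so its RNA level did not check these labels.

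**Figure D1:**
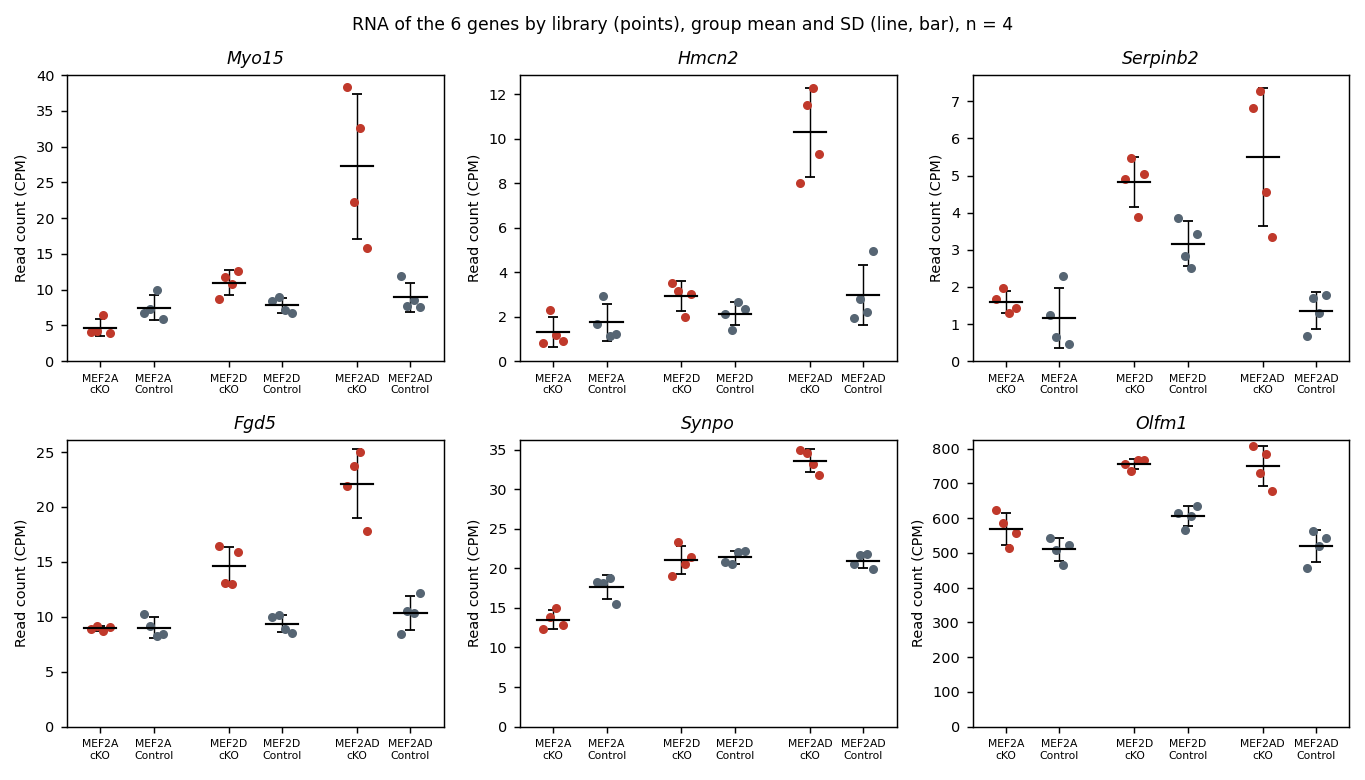
Normalised read count (CPM, linear axis from 0) of the 6 genes in each library (points) of the 6 groups, cKO in red and Control in grey, with the mean as a line and the SD as a bar (n = 4). MEF2AD cKO lies above MEF2AD Control for each gene, and the MEF2D cKO libraries reach the level of the MEF2AD cKO libraries for Olfm1 and Serpinb2 only.

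Hmcn2 stood apart in MEF2AD cKO from all other groups, with a mean 3.52 times that of MEF2D cKO. Hmcn2 (ENSMUSG00000055632; mm10 chromosome 2, 31314255 to 31460738) measured 7.995, 11.5, 12.3 and 9.31 CPM in MEF2AD cKO, against 1.95, 2.80, 2.19 and 4.94 CPM in MEF2AD Control. MEF2D cKO libraries had 3.54, 3.16, 1.985 and 3.01 CPM of Hmcn2, against 2.135, 1.41, 2.66 and 2.34 CPM in MEF2D Control. Hmcn2 stood at 0.8345, 2.32, 1.202 and 0.9315 CPM in MEF2A cKO, against 1.68, 2.92, 1.145 and 1.24 CPM in MEF2A Control. Every MEF2AD cKO library lay above every library of the other 5 groups, and those 5 groups overlapped from each to the next in order of level. The mean in MEF2AD cKO was 3.46 times that of its Control, a log2 fold of 1.55 (SE 0.22). The single knockouts were not called, with log2 folds of 0.32 in MEF2D cKO (SE 0.22; limma adjusted p = 0.475) and -0.24 in MEF2A cKO (SE 0.22; limma adjusted p = 0.865). Between 8 and 231 reads lay behind these values, so counting error is large outside MEF2AD cKO.

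Myo15 was higher in every MEF2AD cKO library than in any other library, but those 4 libraries differed among themselves. Myo15 (ENSMUSG00000042678; chromosome 11, 60469339 to 60528369) measured 38.3, 22.3, 32.6 and 15.8 CPM in MEF2AD cKO, against 11.85, 7.65, 8.61 and 7.60 CPM in MEF2AD Control. MEF2D cKO libraries had 8.69, 11.8, 10.8 and 12.7 CPM of Myo15, against 8.47, 8.93, 7.11 and 6.77 CPM in MEF2D Control. Myo15 stood at 4.07, 4.29, 6.52 and 3.94 CPM in MEF2A cKO, against 6.73, 7.24, 9.99 and 5.91 CPM in MEF2A Control. MEF2AD cKO 4 was the lowest of its group for Myo15, and also for Serpinb2, Fgd5, Synpo and Olfm1. The log2 fold in MEF2AD cKO was 1.45 (SE 0.20; ratio of means 3.05). Its value was 0.44 in MEF2D cKO (SE 0.20; limma adjusted p = 0.233) and -0.57 in MEF2A cKO (SE 0.20; limma adjusted p = 0.417), neither called, and both single-knockout groups overlapped their Controls. In the MEF2A line, where replicate numbers paired the libraries, the fall was called with the replicate block (limma adjusted p = 0.0389). The block also gave a call in MEF2D cKO (limma adjusted p = 0.0337). In the MEF2D line the pairing was incomplete: same-numbered libraries correlated at 0.315, 0.202 and 0.233 for numbers 2, 3 and 4, but at 0.0649 for number 1. The MEF2D effect exceeded the MEF2A effect by 1.01 (SE 0.29; limma adjusted p = 0.360), a difference that limma called for 0.0388% of all genes and for none of the 6; with the replicate block it was called for Myo15 (0.0227).

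Serpinb2 was as high in MEF2D cKO as in MEF2AD cKO, and its Controls differed between lines. Serpinb2 (ENSMUSG00000062345; chromosome 1, 107500892 to 107525600) measured 6.815, 7.29, 4.55 and 3.35 CPM in MEF2AD cKO, against 0.680, 1.69, 1.30 and 1.78 CPM in MEF2AD Control. MEF2D cKO libraries had 4.91, 5.485, 3.89 and 5.05 CPM of Serpinb2, against 3.87, 2.83, 2.51 and 3.43 CPM in MEF2D Control. Serpinb2 stood at 1.67, 1.97, 1.29 and 1.43 CPM in MEF2A cKO, against 1.24, 0.6485, 2.29 and 0.4765 CPM in MEF2A Control. MEF2D cKO and MEF2D Control did not overlap, as for 7.05% of all genes, and the MEF2AD cKO libraries lay on both sides of the MEF2D cKO libraries. The mean of the MEF2D Controls was 2.32 times that of the MEF2AD Controls, with no overlap between the groups. The share of all genes whose Controls differ in this way between lines was not counted. Serpinb2 therefore had a ratio of means of 4.04 in MEF2AD cKO (log2 fold 1.44, SE 0.22) and of 1.53 in MEF2D cKO (log2 fold 0.49, SE 0.22; limma adjusted p = 0.208), although the cKO means of 5.50 and 4.83 CPM were close. The log2 fold in MEF2A cKO was 0.32 (SE 0.22; limma adjusted p = 0.782). Only 5 to 146 reads per library were counted for Serpinb2, and edgeR on whole reads, which adds no pseudocount of 1 CPM, gave 2.06 in MEF2AD cKO.

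Fgd5 rose in MEF2D cKO as well, to a level between Control and MEF2AD cKO. Fgd5 (ENSMUSG00000034037; chromosome 6, 91978827 to 92076005) measured 21.9, 23.7, 25.04 and 17.8 CPM in MEF2AD cKO, against 8.41, 10.52, 10.3 and 12.2 CPM in MEF2AD Control. MEF2D cKO libraries had 16.4, 13.1, 12.98 and 15.9 CPM of Fgd5, against 9.94, 10.1, 8.91 and 8.52 CPM in MEF2D Control. Fgd5 stood at 8.87, 9.15, 8.67 and 9.10 CPM in MEF2A cKO, against 10.3, 9.19, 8.22 and 8.39 CPM in MEF2A Control. The MEF2AD cKO libraries lay above the MEF2D cKO libraries, these lay above all others, and the remaining 4 groups overlapped. The log2 fold was 1.03 in MEF2AD cKO (SE 0.11; ratio of means 2.14), 0.58 in MEF2D cKO (SE 0.11; limma adjusted p = 0.00163) and -0.01 in MEF2A cKO (SE 0.11; limma adjusted p = 0.999). The rise in MEF2D cKO kept an adjusted p of 0.0122 or less when any single library was left out. Since Fgd5 is best known from endothelium, the 18 endothelial markers are set beside it: none was called in any of the 3 knockouts with all libraries (1 was in MEF2D cKO without MEF2A cKO 4 or MEF2D Control 2), and their summed level was 381.1 to 514.6 CPM in MEF2AD cKO against 398.6 to 494.5 CPM in MEF2AD Control, and 387.5 to 444 CPM in MEF2D cKO against 415.6 to 488 CPM in MEF2D Control.

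Synpo moved in opposite directions in MEF2AD cKO and MEF2A cKO, with tight replicates. Synpo (ENSMUSG00000043079; chromosome 18, 60593981 to 60660173) measured 35.0, 34.65, 33.2 and 31.8 CPM in MEF2AD cKO, against 20.5, 21.7, 21.8 and 19.9 CPM in MEF2AD Control. MEF2D cKO libraries had 19.1, 23.3, 20.6 and 21.45 CPM of Synpo, against 20.8, 20.6, 22.05 and 22.2 CPM in MEF2D Control. Synpo stood at 12.3, 13.8, 15.02 and 12.9 CPM in MEF2A cKO, against 18.25, 18.2, 18.7 and 15.4 CPM in MEF2A Control. All MEF2A cKO libraries lay below all MEF2A Controls, as for 1.76% of all genes, while the MEF2D groups overlapped. The log2 fold was 0.66 in MEF2AD cKO (SE 0.07; ratio of means 1.61). Synpo fell by 0.36 in MEF2A cKO (SE 0.07; limma adjusted p = 0.0190) and had a log2 fold of -0.02 in MEF2D cKO (SE 0.07; limma adjusted p = 0.913). The call in MEF2A cKO held with the replicate block (limma adjusted p = 0.0118) and on whole reads (edgeR adjusted p = 0.0349). It was lost with only the MEF2A groups in the fit (limma adjusted p = 0.347). It was also lost without MEF2A cKO 1 (limma adjusted p = 0.101), MEF2A cKO 4 (0.0895) or MEF2A Control 1, 2 or 3 (0.0588, 0.0721 and 0.102).

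Olfm1 rose in MEF2D cKO to the level seen in MEF2AD cKO, but from a higher Control level. Olfm1 (ENSMUSG00000026833; chromosome 2, 28193093 to 28230736) measured 808, 730.5, 784 and 677 CPM in MEF2AD cKO, against 457, 563.5, 519.8 and 542 CPM in MEF2AD Control. MEF2D cKO libraries had 756, 737, 767.5 and 767 CPM of Olfm1, against 616, 567, 607 and 635 CPM in MEF2D Control. Olfm1 stood at 623.5, 585, 513 and 557 CPM in MEF2A cKO, against 544, 508.5, 465 and 523 CPM in MEF2A Control. MEF2AD cKO and MEF2D cKO overlapped and both lay above the other 4 groups, which overlapped from each to the next. The MEF2D Controls nevertheless all lay above the MEF2AD Controls, as for Serpinb2, with a mean 1.17 times theirs. Against its own Control the ratio of means was 1.25 in MEF2D cKO. The log2 fold was 0.53 in MEF2AD cKO (SE 0.07; ratio of means 1.44), 0.32 in MEF2D cKO (SE 0.07; limma adjusted p = 0.00553) and 0.16 in MEF2A cKO (SE 0.07; limma adjusted p = 0.560). The MEF2D call kept an adjusted p of 0.0241 or less when any single library was left out.

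Set side by side, limma called 2 of the 6 genes higher in MEF2D cKO (Fgd5 and Olfm1), against 2.59% of all genes, and 1 lower in MEF2A cKO (Synpo), against 0.129% of all genes. By these calls the name "mainly in the double knockout" does not match Fgd5 and Olfm1. For Serpinb2 the MEF2D cKO and MEF2AD cKO libraries overlapped in level (means 4.83 and 5.50 CPM). Its MEF2D Controls, however, averaged 2.32 times its MEF2AD Controls. Against its own Control it was not called in MEF2D cKO (limma adjusted p = 0.208), so its level does not settle whether the name matches. For Fgd5 the MEF2AD cKO libraries all lay above those of MEF2D cKO. The small changes of the single knockouts were in view when the genes were named, so these counts are not an independent check. The MEF2AD fold exceeded the MEF2D fold by 1.22 for Hmcn2, 1.01 for Myo15, 0.95 for Serpinb2, 0.68 for Synpo, 0.44 for Fgd5 and 0.21 for Olfm1. It exceeded the sum of both single folds by 1.58 for Myo15, 1.46 for Hmcn2, 1.04 for Synpo, 0.62 for Serpinb2, 0.45 for Fgd5 and 0.05 for Olfm1 (-0.01 to 0.10 without any 1 library). Both differences use the libraries that chose the genes and are given without a test. By these values Olfm1 was close to the sum of the single effects, and Myo15, Hmcn2 and Synpo were farthest from it. The order by the first difference changed with edgeR on whole reads. The MEF2AD fold then exceeded the MEF2D fold by 1.46 for Serpinb2, 1.34 for Hmcn2 and 1.11 for Myo15. With edgeR the excess over the sum was 1 for Serpinb2, near the 1.10 for Synpo. In the authors' deposited table the log2 fold in MEF2AD cKO was 0.52 for Olfm1, 0.70 for Synpo, 1.11 for Fgd5, 1.62 for Myo15, 1.82 for Hmcn2 and 2.09 for Serpinb2.

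**Figure D2:**
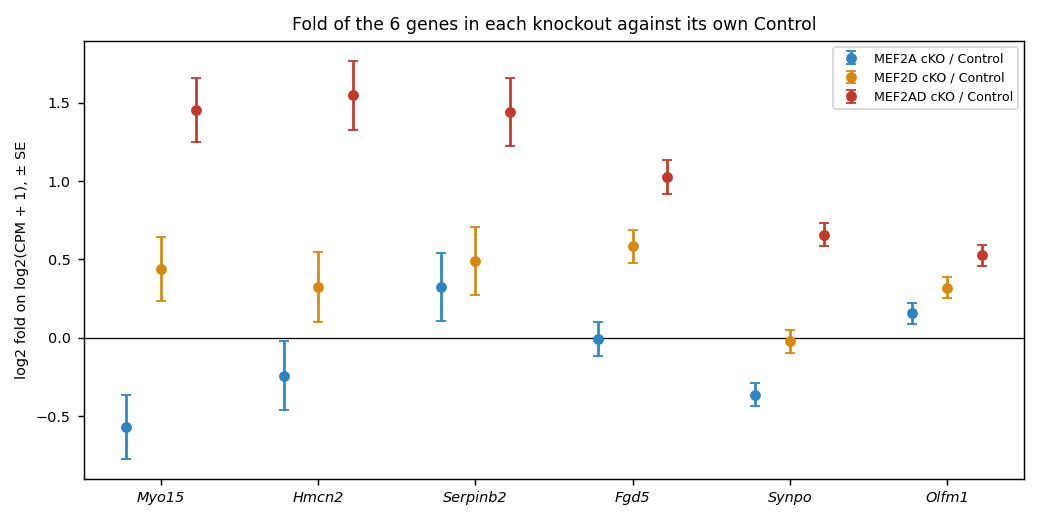
Log2 fold on log2(CPM + 1) of each of the 6 genes in MEF2A cKO (blue), MEF2D cKO (orange) and MEF2AD cKO (red) against its own Control, with the standard error of the fit as a bar. The red points lie from 0.53 to 1.55, while the orange points lie from -0.02 to 0.58 and the blue points from -0.57 to 0.32.

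Only Olfm1 held a MEF2 peak. A MEF2A peak (mm10 chromosome 2, 28219025 to 28219258) lay within a MEF2D peak (28218715 to 28219305) inside the gene, and the centre of the MEF2A peak was 13452 bp from the nearer of its 2 start sites. Of the 14839 genes with a position, 0.681% overlapped a MEF2A peak and 4.66% a MEF2D peak. None of the other 5 genes had a peak within 5 kb (5.53% of genes for MEF2D) or within 50 kb (1.84% for MEF2A and 12.3% for MEF2D). The nearest MEF2D peak was 56.7 kb from Hmcn2, 64.6 kb from Serpinb2, 171 kb from Synpo, 293 kb from Myo15 and 902 kb from Fgd5. The first of these lies inside the neighbouring gene Ncs1, 11068 bp after its start, and the second begins 218 bp after the start of Serpinb8. Of all genes, 13.2% had a MEF2D peak as near as Hmcn2 did, 14.3% as near as Serpinb2 and 68.1% as near as Fgd5. The nearest MEF2A peak of these 5 genes was between 634670 and 23995137 bp away. The distance of a peak does not show which gene it acts on, so whether MEF2 acts on these genes directly was not tested.

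H3K27ac was measured at the deposited MEF2 sites, and 1 of them lies inside Olfm1. At this Olfm1 site (chromosome 2, 28219003 to 28219292), of the class the authors call compensatory, the signal was 2.34, 3.13 and 2.13 RPM (reads scaled in the same way to the library total) in MEF2AD cKO, against 2.19, 2.07 and 2.185 RPM in MEF2AD Control, with 0.0916 and 0.102 RPM in the inputs. The groups overlap on this scale. edgeR with TMM over the sites gave a log2 fold of 0.83 in MEF2AD cKO (adjusted p = 7e-05), 0.42 in MEF2D cKO (adjusted p = 0.0860) and -0.20 in MEF2A cKO (adjusted p = 0.874). This rise is relative to the other MEF2 sites: with library totals in place of TMM the median site moved by -0.505 in MEF2AD cKO and -0.359 in MEF2D cKO. On that scale the Olfm1 site reached 0.32 in MEF2AD cKO (edgeR adjusted p = 0.131). Of all 1372 sites tested, 63.1% were called in MEF2AD cKO (30.9% higher, 32.2% lower), 34.6% in MEF2D cKO (14.7% higher, 20% lower) and 0.0729% in MEF2A cKO.

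The sites nearest to Serpinb2 and Hmcn2, within 100 kb, were added after their positions had been seen, and both belong to the class the authors call non-compensatory. At the site by Serpinb8 (chromosome 1, 107590224 to 107590580) MEF2AD cKO had 7.96, 9.95 and 9.23 RPM, against 8.29, 7.845 and 8.97 RPM in MEF2AD Control. edgeR gave a log2 fold of 0.66 in MEF2AD cKO (adjusted p = 1.7e-06) and 0.43 in MEF2D cKO (adjusted p = 0.00418), and with library totals 0.14 (adjusted p = 0.278) and 0.07 (adjusted p = 0.680). The groups overlapped in RPM, so the call rests on the scaling, as at Olfm1. At the site in Ncs1 (chromosome 2, 31256991 to 31257507) MEF2AD cKO had 4.75, 6.01 and 3.43 RPM, against 20.9, 20.9 and 21.4 RPM in MEF2AD Control. MEF2D cKO had 8.56, 7.58 and 7.30 RPM there, against 18.6, 20.03 and 20.2 RPM in MEF2D Control. The mark fell by 1.54 in MEF2AD cKO (edgeR adjusted p = 3.52e-17) and by 0.97 in MEF2D cKO (edgeR adjusted p = 8.05e-10), and did not pass in MEF2A cKO (log2 fold -0.09; edgeR adjusted p = 0.876). With library totals the falls were larger, at -2.04 and -1.33. The loss in MEF2AD cKO exceeded that in MEF2D cKO by 0.57 on the log2 scale (-0.57; edgeR adjusted p = 0.0358). Thus H3K27ac was lower at the site nearest to Hmcn2, whose RNA was higher in MEF2AD cKO; the part of any site in these genes' RNA was not tested.

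**Figure D3:**
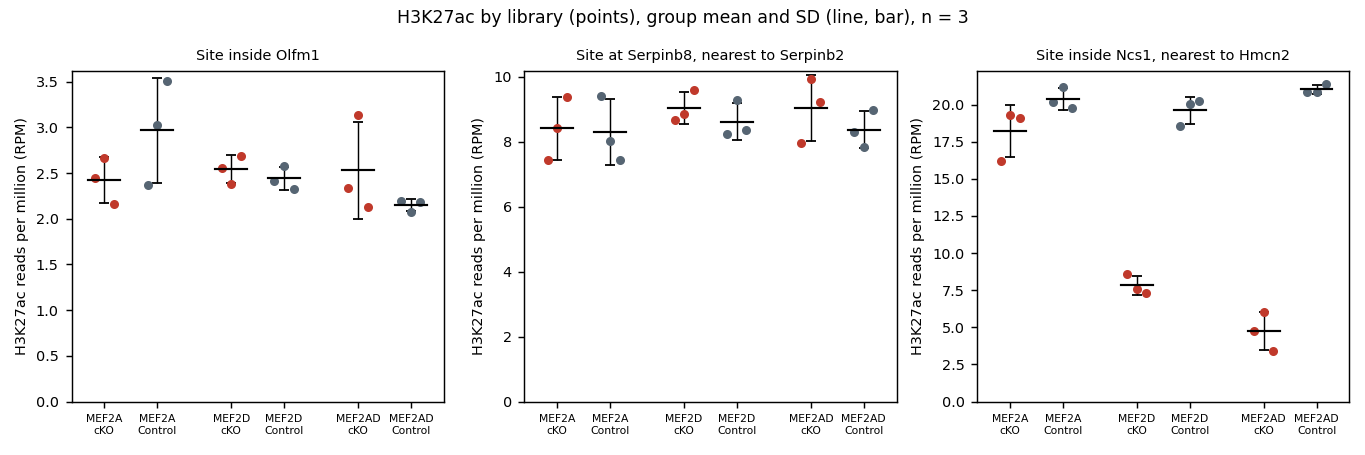
H3K27ac in RPM (reads scaled to the library total, linear axes from 0) at the 3 MEF2 sites nearest to Olfm1, Serpinb2 and Hmcn2, per library (points) with mean and SD (n = 3), cKO in red and Control in grey. At the Ncs1 site the MEF2AD cKO libraries (3.43 to 6.01 RPM) lie below their Controls (20.9 to 21.4 RPM), while at the other sites cKO and Control overlap.

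Of the 12 neighbouring genes, the nearest of the table on each side, Serpinb8 and Ncs1 were called in MEF2AD cKO, against 2.42% of all genes. Serpinb8, a clade B serpin gene like Serpinb2 and 64.3 kb to its right, measured 13.6, 25.01, 14.7 and 16.3 CPM in MEF2AD cKO, against 2.34, 9.86, 7.23 and 7.66 CPM in MEF2AD Control. It rose by 1.33 in MEF2AD cKO (SE 0.27; limma adjusted p = 0.00309), without overlap, and the call held without any 1 library but not with only the MEF2AD groups in the fit (limma adjusted p = 0.105). MEF2D cKO libraries averaged 11.05 ± 1.99 CPM against 7.69 ± 1.49 CPM in MEF2D Control (SD, n = 4), a log2 fold of 0.47 (SE 0.27; limma adjusted p = 0.352). MEF2A cKO libraries averaged 9.85 ± 1.996 CPM against 5.77 ± 1.90 CPM in MEF2A Control (SD, n = 4), a log2 fold of 0.71 (SE 0.27; limma adjusted p = 0.465, and 0.0326 with the replicate block). Serpinb8 thus had higher means in all 3 knockouts, with the call in MEF2AD cKO alone; the differences between knockouts did not pass the test (limma adjusted p of 0.626 for MEF2AD against MEF2D and 0.858 for MEF2AD against MEF2A).

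Ncs1, a neuronal calcium sensor gene 18.3 kb to the left of Hmcn2, went the other way from Hmcn2. It measured 136.9, 119.1, 139.2 and 171.8 CPM in MEF2AD cKO, against 202.9, 149.3, 180.2 and 172.2 CPM in MEF2AD Control, which overlap. It fell by 0.32 in MEF2AD cKO (SE 0.08; limma adjusted p = 0.0396), a call lost without any of 10 single libraries (adjusted p up to 0.207) and with only the MEF2AD groups in the fit (0.366). In MEF2D cKO, Ncs1 measured 129.7, 129.1, 132.1 and 125.4 CPM against 151.8, 149.5, 153.4 and 152.8 CPM in MEF2D Control, with no overlap (log2 fold -0.23, SE 0.08; limma adjusted p = 0.109). The limma adjusted p was 0.00213 with only the MEF2D groups in the fit. The other 10 neighbours, Drg2 and Alkbh5 beside Myo15, Ass1 beside Hmcn2, Vps4b beside Serpinb2, Ccdc174 and Nr2c2 beside Fgd5, Rbm22 and Ndst1 beside Synpo, and Col5a1 and Ppp1r26 beside Olfm1, were called in none of the 3 knockouts. Their log2 folds in MEF2AD cKO lay between -0.15 and 0.10. Being the nearest genes measured, some lie far off: Vps4b is 704.2 kb from Serpinb2, and Col5a1 and Ppp1r26 are 153.6 and 215.8 kb from Olfm1.

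**Figure D4:**
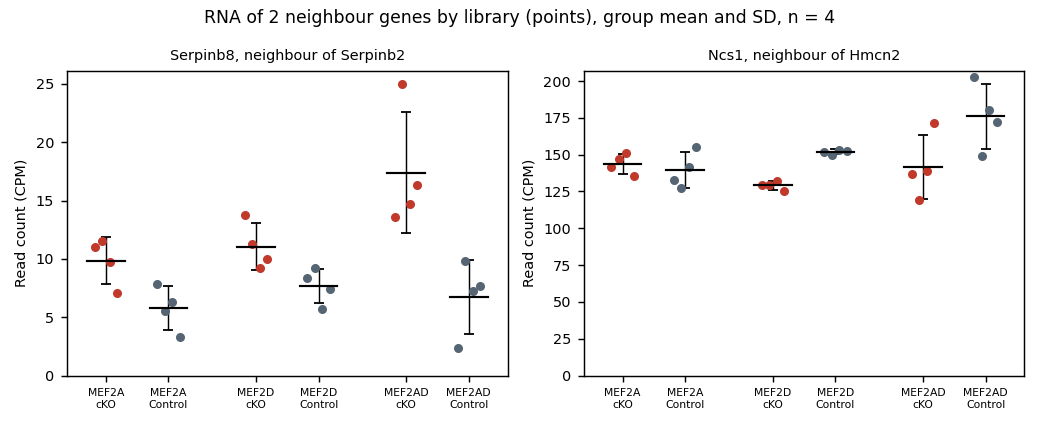
Normalised read count (CPM, linear axes from 0) of Serpinb8 and Ncs1 per library (points) with mean and SD (n = 4), cKO in red and Control in grey. Serpinb8 lies at 13.6 to 25.01 CPM in MEF2AD cKO and at 2.34 to 9.86 CPM in MEF2AD Control, while the MEF2AD groups of Ncs1 overlap.

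In MEF2AD cKO, where 2.42% of all genes were called, the relatives of the 6 genes had the following values, with the 6 genes themselves left out of the counts. None of the other 17 measured unconventional myosins was called, with Myo5b at a log2 fold of -0.57; 1 was called without MEF2AD Control 4, MEF2A cKO 4 or MEF2A Control 3. None of the 5 measured MYO15 partners of the stereocilia tip, such as Whrn and Eps8, was called in any knockout with all libraries, though 1 was in MEF2D cKO when any of 5 single libraries was left out (MEF2AD cKO 3 or 4, MEF2A cKO 1, MEF2D cKO 3, MEF2D Control 4). None of the other 7 hemicentins and fibulins was called, with Hmcn1, a relative of Hmcn2, at -0.23 (SE 0.19; limma adjusted p = 0.854). Of the other 6 measured clade B serpins, Serpinb8 was called and the other 5 lay between -0.24 and 0.15. In the plasminogen system Plat, which encodes tissue plasminogen activator, was at -0.21 in MEF2AD cKO (SE 0.09; limma adjusted p = 0.341). Plat fell by 0.33 in MEF2D cKO (SE 0.09; limma adjusted p = 0.0269, lost without MEF2D cKO 1 or 3 or MEF2D Control 1 or 2, with values up to 0.127). Urokinase (Plau) and its receptor (Plaur) were measured at means of 0.847 and 0.706 CPM over all libraries and were not called. The other 5 FGD genes, Fgd1, Fgd2, Fgd3, Fgd4 and Fgd6, lay between -0.01 and 0.11 and were not called.

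Among proteins that work with the 6, Pak1, a kinase activated by CDC42, was the 1 gene called of 17 measured in the CDC42 pathway, against 2.42% of all genes in MEF2AD cKO and 4.93% in MEF2D cKO. It rose by 0.34 in MEF2AD cKO (607.9 ± 20.2 CPM against 480.9 ± 38.6 CPM in MEF2AD Control; SD, n = 4; limma adjusted p = 0.000106) and by 0.24 in MEF2D cKO (limma adjusted p = 0.00562). Cntnap1, a contactin-associated protein gene of the axon, was the 1 gene called of 11 OLFM1 partners in MEF2AD cKO, and rose by 0.23 in MEF2AD cKO (limma adjusted p = 0.0193), a call lost without MEF2AD cKO 1 (0.115), MEF2AD cKO 3 (0.0620), MEF2AD Control 1 (0.0573) or MEF2AD Control 4 (0.0666); without MEF2AD cKO 4, 3 of the 11 were called. The 4 AMPA receptor genes Gria1 to Gria4 lay between -0.04 and 0.14 and were not called. None of the 9 measured relatives and actin partners of Synpo was called in MEF2AD cKO, and Actn1, an actinin gene, fell by 0.26 in MEF2D cKO (limma adjusted p = 0.0209, lost without MEF2D cKO 3 or 4 or MEF2D Control 1 or 2, with values up to 0.0858). None of the other 8 measured olfactomedin genes was called, with Olfm3 at 0.24 (SE 0.07; limma adjusted p = 0.0767); 1 was called without MEF2AD cKO 4 or MEF2AD Control 2.

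**Figure D5:**
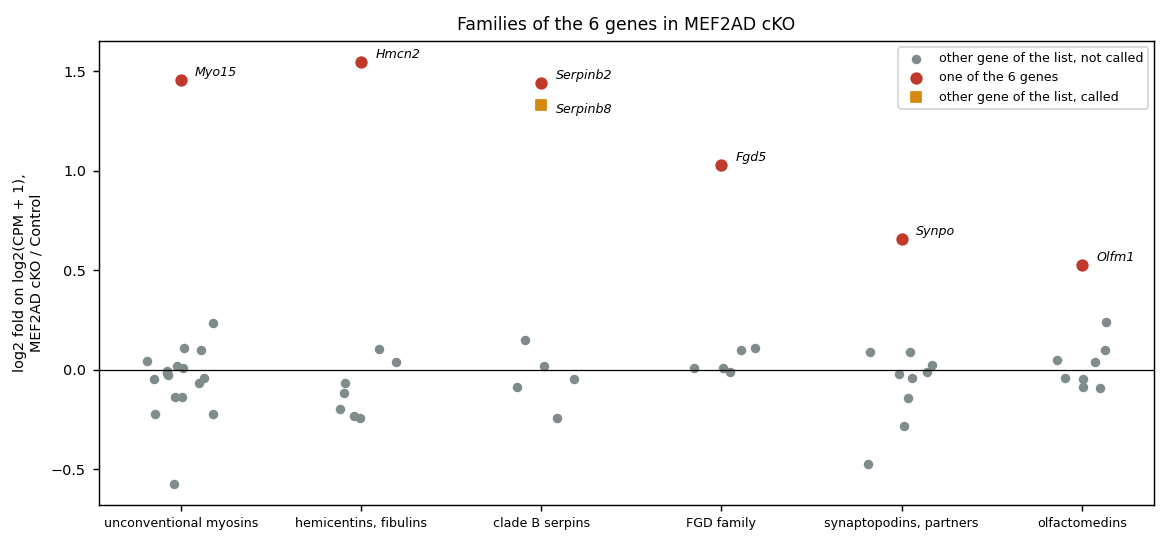
Log2 fold on log2(CPM + 1) in MEF2AD cKO against MEF2AD Control of every measured gene in the lists of myosins, hemicentins and fibulins, clade B serpins, FGD genes, synaptopodins with actin partners, and olfactomedins, with the 6 genes in red, Serpinb8 as an orange square and uncalled genes in grey, spread sideways for sight. The uncalled genes lie between -0.57 and 0.24 and Serpinb8 at 1.33, while the 6 genes were chosen for their rise in MEF2AD cKO.

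Marker genes of cell types are set beside these rises; their part in them was not tested. In MEF2AD cKO limma called none of the measured markers of pericytes (8), meningeal fibroblasts (10), astrocytes and Bergmann glia (11), oligodendrocytes (11), microglia (10), Purkinje cells (10), interneurons and unipolar brush cells (14), granule cell progenitors (15), choroid plexus (12), forebrain (6), brainstem (6) or red blood cells (5), against 2.42% of all genes. Without MEF2AD cKO 4, 3 oligodendrocyte markers were called, and without MEF2AD cKO 3, 1 progenitor marker was (Ccnd1; limma adjusted p = 0.00253). Of 16 markers of mature granule neurons, Gabra6 and Calb2 rose by 0.37 and 0.52 and Vsnl1 fell by 0.52; Calb2 was not called without MEF2AD cKO 2 (limma adjusted p = 0.0546). In MEF2D cKO, where Fgd5 and Olfm1 rose, 5 of the 16 were called, against 4.93% of all genes: Gabra6 and Calb2 rose by 0.88 and 0.41, and Slc17a7, Chn2 and Vsnl1 fell by 0.28, 0.40 and 0.37. Without MEF2D cKO 4 or MEF2D Control 1 the count was 3; the call of Calb2 was lost when any of 6 MEF2D libraries was left out (limma adjusted p up to 0.130), and that of Slc17a7 when any of 5 was (up to 0.108). The interneuron genes Slc32a1 and Pax2 fell by 0.35 and 0.39 and the progenitor gene Ccnd1 rose by 0.45 in MEF2D cKO; the call of Pax2 was lost when any of 6 MEF2D libraries was left out (limma adjusted p up to 0.112). Choroid plexus markers varied with the library more than with the group, at a summed 190 to 2348 CPM in MEF2AD cKO against 584.8 to 2843 CPM in MEF2AD Control. Of 31 measured activity-regulated genes, Jun alone was called in MEF2AD cKO and fell by 0.39 (58.5 ± 10.1 CPM against 77.0 ± 10.6 CPM in MEF2AD Control; SD, n = 4; limma adjusted p = 0.0125). The groups overlapped for Jun, and the call was lost without MEF2AD cKO 2 (limma adjusted p = 0.0770), MEF2AD cKO 3 (0.0582) or MEF2AD Control 1 (0.0740).

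The genes with the most similar folds were found by Euclidean distance over the 3 log2 folds, among 14659 other genes with a mean of at least 1 CPM. Being picked for these folds, they are described without a test. Piezo2, which encodes a mechanically gated ion channel, was nearest to Myo15 (distance 0.674) and to Hmcn2 (0.612) and next after Ifi203 to Fgd5 (0.181). Its mean was 12.1 CPM in MEF2AD cKO against 5.73 CPM in MEF2AD Control, with log2 folds of 0.96 in MEF2AD cKO, 0.45 in MEF2D cKO and -0.11 in MEF2A cKO. Outside the 6 genes, which were not compared with one another, no gene came closer than these distances to Myo15 or Hmcn2. Serpinb2 was nearest to its neighbour Serpinb8 (0.398), then to Il10ra, which encodes a subunit of the interleukin-10 receptor (0.488), and to the myosin heavy chain gene Myh13 (0.496). Il10ra had log2 folds of 1.001 in MEF2AD cKO, 0.67 in MEF2D cKO and 0.20 in MEF2A cKO. Fgd5 was nearest to Ifi203 (0.0524), an interferon-inducible gene with log2 folds of 1.004 in MEF2AD cKO, 0.62 in MEF2D cKO and 0.02 in MEF2A cKO (SE 0.28). Ifi203 read 9.36 to 25.91 CPM in MEF2AD cKO and 5.65 to 11.48 CPM in MEF2AD Control, which overlap. After Piezo2 came Slco2a1 (0.216), which encodes a prostaglandin transporter, at 0.92 in MEF2AD cKO and 0.77 in MEF2D cKO. Synpo was nearest to the forkhead factor gene Foxo6 (0.124), at 0.65 in MEF2AD cKO and -0.24 in MEF2A cKO (SE 0.14). Next came Pde10a (0.220), at 0.46 in MEF2AD cKO (SE 0.25), where its libraries overlapped those of MEF2AD Control. The calcium pump gene Atp2b4 (0.234), also near Synpo, had log2 folds of 0.72 in MEF2AD cKO and -0.24 in MEF2A cKO. The 3 genes nearest to Olfm1, Mgl2, Pak6 and 1700113A16Rik, were within 0.0703 of it. The last is an antisense RNA, counted with strand use not stated. Their means over all libraries were only 1.66, 2.32 and 1.56 CPM. The SE of their folds (0.15, 0.29 and 0.17) exceeded these distances, so the closeness is not resolved by the data. The same holds for Foxo6 and Pde10a near Synpo and for Ifi203 near Fgd5.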

How the data were processed

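RNA was measured in 24 libraries of mouse cerebellum and H3K27ac in 18 libraries with 2 inputs. The submitters' processing notes name STAR 2.6, Bowtie2 2.3.4.2, MACS2 and mm10 without a role for each; no source used here names the counting tool. The authors deposited RNA as log2 CPM per library, with an offset of 0.5 reads per the values; whole reads came out for 100% of values (tolerance 0.05 reads), 9178139 to 23160475 per library. The recovered reads behave as counts, and the edgeR test on them called 410, 35 and 734 genes in MEF2AD, MEF2A and MEF2D cKO, against 374, 44 and 762 by limma. Of 15560 rows, 91 repeated an identifier and were dropped. The same table holds the authors' deposited log2 folds and adjusted p-values, whose adjustment is not stated. H3K27ac values are deposited read counts per site under library totals of 8694657 to 48557960 reads. Another 114 columns of per-sample values were not used.

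For RNA, log2(CPM + 1) was fitted in limma 3.58.1 under R 4.3.3, with 6 group means, no filter and Benjamini-Hochberg adjustment over 15469 genes. The design assumed counts or CPM; limma was used because the values are normalized. The H3K27ac test was the quasi-likelihood test of edgeR 4.0.16 after TMM over sites and its low-count filter, with DESeq2 1.42.0 as an alternative in both assays. CPM carry SD and folds carry SE from the model. RefSeq annotation of GRCm38.p6 gave positions for 14839 genes (13597 via Entrez identifier and 1242 via symbol). Peak and site starts were read as 0-based, and 1 was added. Replicate numbers were taken to pair libraries in the MEF2A line, where the deviations of same-numbered cKO and Control libraries correlated at 0.404, 0.503, 0.240 and 0.197; in the other lines at least 1 number did not exceed 0.1. Scripts were tested on simulated data. Tables and plots were made in Python 3.11.15 (pandas 2.3.3, numpy 2.4.6, matplotlib 3.10.9).

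The 6 genes and the 25 gene lists beside them were chosen with earlier results of these data known. Named genes are the 6 genes, the neighbour on each side, the 3 genes with the nearest folds, genes of the family lists, called genes of the other lists (up to 4 each) and sites within 50 kb; the contrast of MEF2D against MEF2A effects, the 2 sites within 100 kb, CPM of library totals and motifs other than the MEF2 core were added after the data were seen. Counts over lists include a gene whose own result is not reported here.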

Additional observations from a re-analysis of the deposited data

Results flagged for a closer look

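In MEF2A cKO, Myo15 measured 6.52 CPM in library 3, against 3.94 to 4.29 CPM in the other 3 libraries of the group, a gap beyond Dixon's 95% critical value for 4 samples. It was the only such sample in the 36 groups tested, where chance flags about 1 in 20.

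Synpo fell in MEF2A cKO (log2 fold -0.36) and was higher in MEF2AD cKO (log2 fold 0.66), with every library of each cKO group on that side of all its Controls. The difference between these effects was not tested, since Synpo was chosen for its value in MEF2AD cKO.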

How the results depend on the processing

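Alternatives were 2 other pseudocounts, a filter at a mean of 1 CPM, only the groups compared in the fit, the replicate block, edgeR, DESeq2, TMM-scaled CPM, CPM of library totals (chosen after seeing the data) and leaving out each library. Folds of the 6 genes in MEF2AD cKO kept their direction in all of them. With a library left out or another pseudocount this was fixed in advance, since the cKO libraries lay above all their Controls. Serpinb2 moved to 2.06 with edgeR and 2.05 with DESeq2, which add no pseudocount of 1 CPM. With only the groups compared, Myo15 (0.44; limma adjusted p = 0.0444) and Serpinb2 (0.49; 0.0410) were called in MEF2D cKO and Synpo in MEF2A cKO was not (-0.36; 0.347). The replicate block added Myo15 in MEF2A cKO (-0.57; 0.0389) and in MEF2D cKO (0.44; 0.0337), and with it the difference between these effects (1.01; 0.0227), and changed no other call of the 6 genes in the single knockouts. Without 1 library, Synpo in MEF2A cKO ranged from -0.42 to -0.32. Genes called numbered 209 in MEF2AD cKO, 17 in MEF2A cKO and 1056 in MEF2D cKO with only the groups compared, 632, 116 and 1385 with the replicate block, and, without 1 library, 289 to 479, 23 to 58 and 308 to 864; the lowest counts were without MEF2A cKO 4 and without MEF2D Control 1 (331 without MEF2D cKO 4, 490 without MEF2D Control 3, and 25 and 27 without MEF2A cKO 1 and MEF2A Control 3).

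For H3K27ac, library totals moved the Olfm1 site to 0.32 (edgeR adjusted p = 0.131) and the Serpinb8 site to 0.14 (0.278) in MEF2AD cKO and 0.0669 (0.680) in MEF2D cKO, since the median site then fell by 0.505 in MEF2AD cKO; of the sites called in MEF2AD cKO, 28 were then higher and 753 lower, against 424 and 442. Sites called in MEF2A cKO numbered 1, against 0 with library totals, 0 with DESeq2, 10 with only the groups compared, 5 with the replicate block and 0 to 12 without 1 library, and the Serpinb8 site there ranged from -0.000244 (without MEF2A Control 3) to 0.198. Peaks could not be ranked, as the lists hold no score, so that alternative was not run. Counting error limits Serpinb2 and Hmcn2 at a few CPM.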
